A study of Mus musculus with 6 samples.

Results

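The data described here are the DNA methylation signals over 4 genes of the hypothalamic feeding circuit, Pomc, Agrp, Npy and Mc4r. The probes were chosen by position alone, as every probe outside the array's controls that lay in 1 of 4 fixed windows of the mm9 build, of 20000 bp around Pomc and around Agrp, 23000 bp around Npy and 18000 bp around Mc4r. This gave 39 of the 174638 probes, 15 in the Agrp window and 8 in each of the windows of Pomc, Npy and Mc4r. The probes were 45 to 60 bp long, ran from chr12:3953654 to 3955247, chr8:108089451 to 108093199, chr6:49771442 to 49773037 and chr18:67019656 to 67021380, and formed 6 of the array's 22574 regions of neighbouring probes (starts at most 500 bp apart, at least 3 probes).

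The samples were hypothalamic tissue of mouse offspring at 16 weeks of age. In the inulin group (n = 3), the dams had received inulin, a fermentable plant fibre. In the obesity group (n = 3), the titles name maternal obesity and the group label names a maternal high fat diet. The labels give no strain, sex, litter or dose, do not say whether the inulin dams were also obese or fed a high fat diet, and include no group of lean, untreated dams. The names under which the inulin arrays were deposited join the obesity arrays' abbreviation to inulin, which may mean obese dams given inulin; the grouping does not use this. No label places the samples in separate litters, so the p-values below measure only the spread between these samples.

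On each array, genomic DNA enriched with an antibody against methylated cytosine (MeDIP, labelled with Cy5) was hybridised together with the unenriched input DNA of the same sample (labelled with Cy3). The value of a probe is the log2 ratio of MeDIP over input signal, after each array was centred on its median over all probes, so that 0 is the ratio of the array's middle probe. A ratio is set by methylation and also by how many CpG sites the captured fragment holds, so the ratios below compare a probe between groups and give no order of methylation between probes. DNA of the whole tissue was measured, so a change in the cells that use these genes cannot be told apart from a change in the mixture of cell types.

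The 4 genes act in 1 circuit of the arcuate nucleus and its targets. Pomc encodes the precursor from which alpha-MSH is cut, the peptide that lowers food intake, and Mc4r encodes the melanocortin receptor on which alpha-MSH acts in the paraventricular nucleus. Agrp encodes an inverse agonist of the same receptor, and Npy a peptide that drives feeding through its own receptors. Agrp and Npy are made by the same arcuate neurons, which fasting activates and leptin inhibits. Methylation of CpG sites in promoters often goes with low transcription, and Pomc has been studied for it after changes in maternal and early diet.

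The start regions of Pomc and Npy are shown because the windows centre on these genes and MeDIP captures CpG sites. Both sequences hold 250 bases before and 50 after the annotated start, on the plus strand of the GRCm38.p6 build, from RefSeq. The promoter sequences at hand did not include Agrp, and Mc4r was left out of this display. Capitals mark CpG sites.
Pomc, chr12:3954695-3954994: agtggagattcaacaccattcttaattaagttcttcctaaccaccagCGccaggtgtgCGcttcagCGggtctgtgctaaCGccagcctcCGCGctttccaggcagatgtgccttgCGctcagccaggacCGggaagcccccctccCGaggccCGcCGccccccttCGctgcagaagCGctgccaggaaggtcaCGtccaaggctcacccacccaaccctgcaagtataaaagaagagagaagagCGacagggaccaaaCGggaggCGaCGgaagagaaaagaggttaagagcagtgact
Npy, chr6:49822460-49822759: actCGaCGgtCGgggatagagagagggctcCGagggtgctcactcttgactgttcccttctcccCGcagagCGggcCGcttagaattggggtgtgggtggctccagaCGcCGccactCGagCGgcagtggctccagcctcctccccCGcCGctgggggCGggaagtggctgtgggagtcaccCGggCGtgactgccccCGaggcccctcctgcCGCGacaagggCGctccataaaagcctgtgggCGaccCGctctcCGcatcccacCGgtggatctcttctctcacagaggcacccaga
The Pomc sequence held 18 CpG sites at a GC content of 59.0% and the Npy sequence 24 at 68.0%, against medians of 7 CpG sites and 52.7% GC over 32841 mouse promoters of this length. Fewer CpG sites than in Pomc were found in 70.3% of those promoters, and fewer than in Npy in 80.0%. The TATA box letters TATAAA, searched on both strands, stood at position 226 of the Pomc sequence and were not in this stretch of Npy. They were in 13.6% of all promoters. Probe positions are in mm9, another build, so the probes cannot be laid on these letters. Whether a probe lies in a promoter, exon, intron or neighbouring gene was not analysed here. The nearest coding genes in the RefSeq table are Dnmt3a and Efr3b for Pomc, Atp6v0d1 and Ripor1 for Agrp, Stk31 and Mpp6 for Npy, and Pmaip1 and Gnal for Mc4r.

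Between 94.4% and 96.4% of an array's probes had input signal well above background, and between 77.3% and 85.7% had such MeDIP signal. Of the 39 probes in the 4 windows, 32 (82.1%) were well above background in both channels on all 6 arrays, against 73.0% of all probes, and none was saturated. The scanner software flagged 4 of the 39 as outlier spots on at least 1 array, and 2 Mc4r probes were left with too few arrays to test. Per the file headers, the 3 inulin arrays shared 1 slide scan, obesity arrays 1 and 3 shared another, and obesity array 2 was on the third. No slide held both groups, so slide and group cannot be told apart in any value below. The spread of ratios also differed between the groups: the interquartile range over all probes was 1.38 ± 0.008 in inulin and 1.73 ± 0.135 in obesity (SD, n = 3 each). The groups did not overlap (exact permutation p = 0.1, two-sided, the smallest that 3 against 3 arrays can give).

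Over the 4 genes, the share of probes past the threshold was near that of the whole array. None of the 6 regions passed, against 10.4% of 22569 regions across the array. Of 37 probes tested with limma across the whole array, 3 passed an adjusted p of 0.05: 1 Agrp probe and 1 Npy probe with a higher ratio in inulin, and 1 Agrp probe with a lower one. Only the last of them was well above background in both channels on every array. Across the array, 8.21% of 170019 probes passed, 5.12% higher and 3.08% lower in inulin, so 3 of 37 is near the background. With slide as a random block (estimated correlation 0.35), 0 of the 37 passed, and 270 of the 170019 probes. At an unadjusted p under 0.05 there were 7 of 37, against 30.1% of all probes. The ratio was higher in inulin at 13 of the 37 and lower at 24, with a median difference of -0.094 (log2, inulin minus obesity). Over all probes, 49.8% were higher in inulin and the median difference was -0.002. The size of the differences was smaller here than across the array, with a median of 0.18 without regard to sign, against 0.24.

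**Figure D1:**
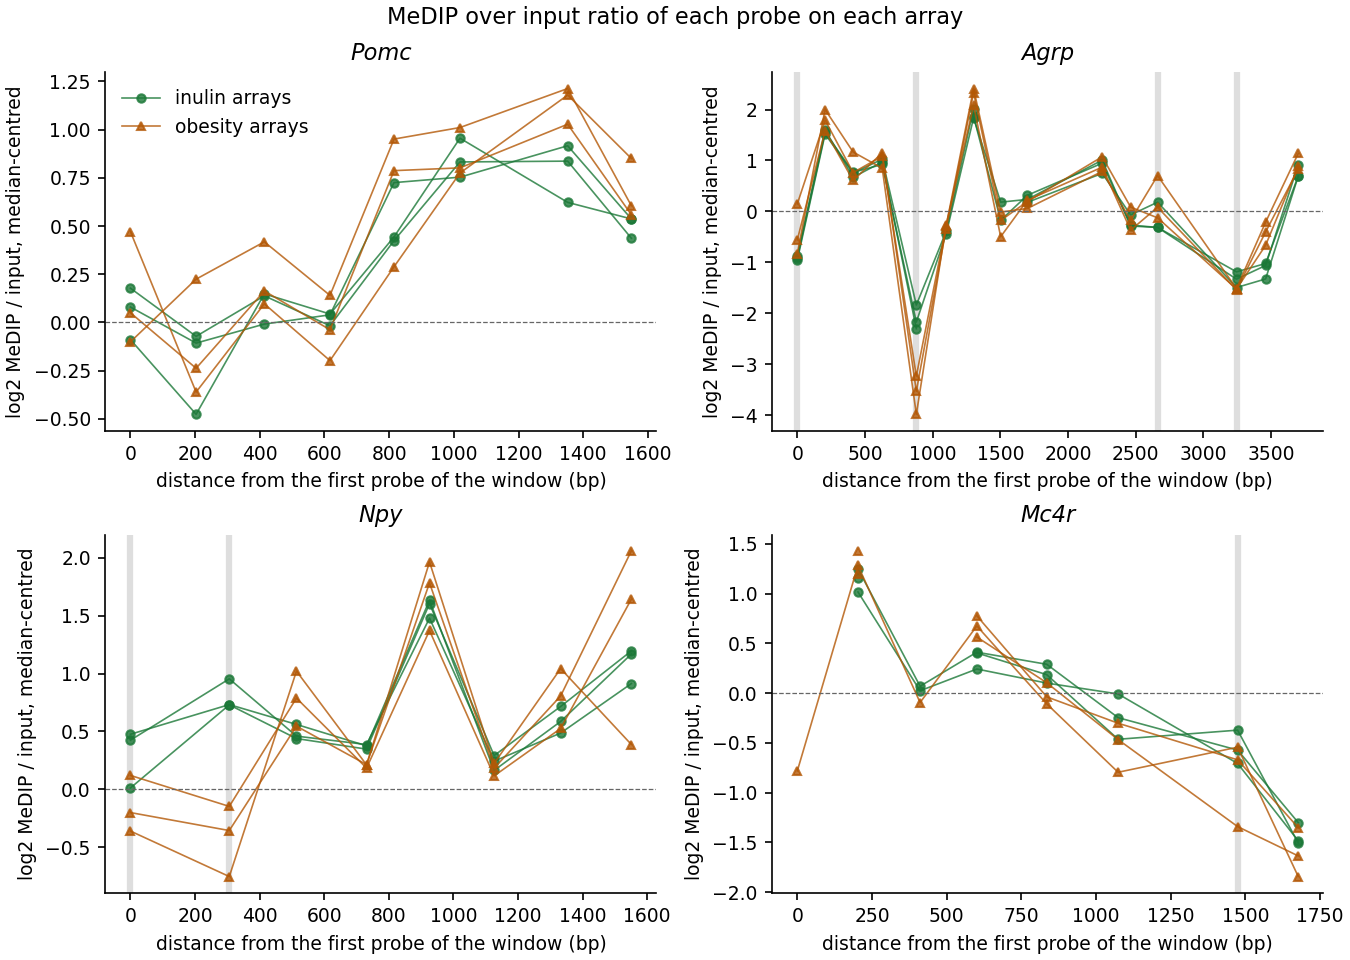
Centred log2 ratio of MeDIP over input (vertical axis) along each gene window, against the distance in bp from the window's first probe (horizontal axis). Each line is 1 array, coloured by group, and grey vertical bars mark probes that were not well above background in both channels on every array. The Agrp window spans 3749 bp with the widest range of ratios of the 4 windows, from -2.84 to 2.09 as the mean of 6 arrays, and the lines of the 2 groups run close together at most probes.

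The pattern of ratios along the genes was shared by all arrays. Over the 35 probes with a value on every array, Pearson's r between arrays was 0.91 to 0.98 in the 6 pairs within a group and 0.88 to 0.94 in the 9 pairs between groups, given as a description because the arrays share their probes. Values between groups did not overlap at 10 of these 35 probes, 4 higher and 6 lower in inulin, against 38.0% of 161716 probes across the array (19.0% in each direction). Over the probes of the 4 windows, the SD between replicates had a median of 0.12 in inulin and 0.23 in obesity. The same medians over all probes were 0.13 and 0.20.

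All 8 Pomc probes were well above background in both channels, and 7 of the 8 had a lower mean ratio in inulin. The mean ratio of the window was 0.34, 0.37 and 0.27 in inulin arrays 1 to 3, against 0.39, 0.56 and 0.39 in obesity arrays 1 to 3. Every inulin array lay below every obesity array, with obesity array 2 the highest. The means were 0.33 ± 0.05 in inulin and 0.44 ± 0.10 in obesity (SD, n = 3 each), a difference of -0.12 at the smallest p the design allows (exact permutation p = 0.1).

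As 1 region, chr12:3953654-3955247, the Pomc probes did not pass in limma: the difference was -0.12, with a 95% interval of -0.29 to 0.05 and an adjusted p of 0.323. Its mean ratio was higher than that of 79.2% of all regions. For comparison, 10.4% of 22569 regions passed the adjusted threshold, and groups did not overlap at 36.8% of them. With the arrays brought to an equal scale, the Pomc window difference was -0.029, after quantile normalization -0.038 and with loess -0.030 (exact permutation p = 0.6, 0.6 and 0.5). Without obesity array 2 it was -0.060 (exact permutation p = 0.2).

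The Pomc probe with the highest ratio, chr12:3955006-3955050, also had the largest difference. Its log2 ratios were 0.84, 0.92 and 0.62 in inulin and 1.03, 1.21 and 1.18 in obesity. The groups did not overlap. The difference of -0.35 (SE 0.13) had a limma adjusted p of 0.120, and it was -0.14 on an equal scale. The next probe, chr12:3955203-3955247, did not overlap either, at 0.44, 0.54 and 0.54 in inulin and 0.56, 0.60 and 0.85 in obesity. At that probe the MeDIP signal alone was lower in inulin by 0.61 (limma adjusted p = 0.049), and the input signal was lower by 0.42 (adjusted p = 0.117).

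The lowest Pomc ratio was at chr12:3953857-3953901, with -0.07, -0.11 and -0.48 in inulin against -0.24, 0.22 and -0.36 in obesity. The groups overlapped, and the sign of the difference (-0.094) turned without inulin array 3 (0.035) or without obesity array 2 (0.081). The other 5 Pomc probes differed by -0.14 to 0.054.

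The 2 channels of Pomc moved the same way. The mean MeDIP signal of the window, centred on each array's median, was 0.75, 0.78 and 0.79 in inulin and 0.92, 1.23 and 0.86 in obesity. All inulin arrays were below all obesity arrays (difference -0.23, exact permutation p = 0.1). The input signal was 0.35, 0.35 and 0.47 in inulin and 0.47, 0.60 and 0.38 in obesity, which overlapped (difference -0.095, exact permutation p = 0.2). The ratio therefore kept only part of the difference in the MeDIP channel.

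**Figure D2:**
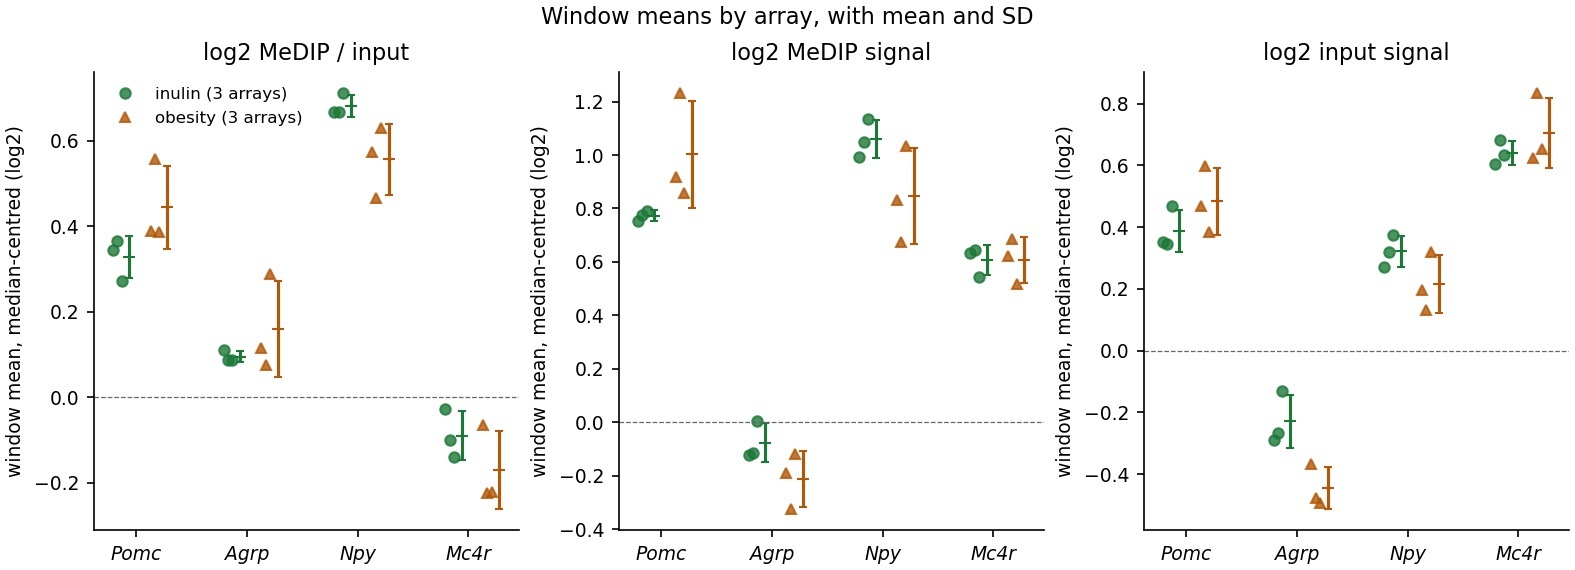
Mean of the probes with a value on all 6 arrays (8 for Pomc, 13 for Agrp, 8 for Npy and 6 for Mc4r), by array, for the centred log2 ratio and for each channel alone, in log2 units. Points are arrays, with the inulin group left of the obesity group, and bars give the mean and SD of 3 arrays. The ratio of Pomc lay lower and that of Npy higher in every inulin array than in any obesity array, while Agrp and Mc4r overlapped.

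Agrp, the antagonist in the circuit, had 2 of 15 probes past the threshold, 1 in each direction, against 8.21% of all probes. Its window mean overlapped between the groups. The mean ratio over its 13 probes with complete values was 0.11, 0.09 and 0.09 in inulin and 0.12, 0.08 and 0.29 in obesity. Obesity array 3 stood above the other 5 arrays. The difference was -0.065 (exact permutation p = 0.6), and without obesity array 3 it was -0.00056. Over the 9 probes well above background in both channels it was -0.18, with normexp -0.097 and with loess -0.11, each with an exact permutation p of 0.1. On an equal scale it was -0.039 (exact permutation p = 0.8). Of the 15 probes, 4 had a higher and 11 a lower mean ratio in inulin.

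The Agrp probe that passed and was measured in both channels was chr8:108092910-108092954. Its log2 ratios were -1.33, -1.02 and -1.06 in inulin and -0.66, -0.40 and -0.21 in obesity. Each inulin array was below each obesity array, and the means were -1.14 ± 0.16 and -0.43 ± 0.23 (SD, n = 3 each). The difference of -0.71 (SE 0.16, 95% interval -1.07 to -0.34) had a limma adjusted p of 0.040. It passed on an equal scale (-0.88, adjusted p = 0.037) and in the authors' deposited table (adjusted p = 0.045). It was lost without any 1 of the 6 arrays (adjusted p 0.051 to 0.137) and with slide as a random block (adjusted p = 0.201).

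At this probe the difference stood in the input channel. The centred log2 input signal was 0.11, 0.08 and 0.02 in inulin and -0.33, -0.55 and -0.69 in obesity, a difference of 0.59 (limma adjusted p = 0.026, input alone). The MeDIP signal was -1.16, -0.88 and -0.99 in inulin and -0.93, -0.88 and -0.82 in obesity, a difference of -0.13 (limma adjusted p = 0.503, MeDIP alone). The input DNA was not enriched for methylation, so a lower ratio here came with more input signal in inulin rather than with a MeDIP difference past the threshold.

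The Agrp probe with the lowest ratio, chr8:108090330-108090374, also passed, with the opposite sign. Its log2 ratios were -1.84, -2.17 and -2.30 in inulin and -3.53, -3.98 and -3.23 in obesity (limma adjusted p = 0.017). Its MeDIP signal was well above background on 2 of 3 inulin arrays and on no obesity array, where it has only an approximate bound. The mean MeDIP signal was -1.69 in inulin and -3.50 in obesity as measured. Against the lowest signals that were well above background, it was 1.52-fold higher in inulin, and the ratio 1.21-fold higher. These folds are not a firm lower limit, because the inulin mean includes an array where this probe was not well above background. Its signal there lay between -1.78 and -1.63, so a spot of that signal can also fall short. The call was lost with a different background correction (normexp, adjusted p = 0.347) and in the authors' deposited table (adjusted p = 0.319). It was also lost without inulin array 1 (adjusted p = 0.068) or 2 (adjusted p = 0.071), and with slide as a random block (adjusted p = 0.095).

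The highest Agrp ratio was at chr8:108090753-108090797, above the mean ratio of 98.9% of all probes on the array. Its log2 ratios were 2.02, 1.84 and 1.86 in inulin and 2.33, 2.08 and 2.41 in obesity. The groups did not overlap. The difference of -0.37 (SE 0.13) had a limma adjusted p of 0.114, passed with normexp (-0.34, adjusted p = 0.028) and turned to 0.082 on an equal scale. Its MeDIP signal alone was lower in inulin by 0.56 (limma adjusted p = 0.040).

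At the Agrp probe chr8:108090550-108090594, both channels differed past the threshold and the ratio did not. Its MeDIP signal was higher in inulin by 0.98 (limma adjusted p = 0.019) and its input signal by 1.12 (adjusted p = 0.007), on 2 inulin and 3 obesity arrays. Its ratio was -0.39 and -0.45 in inulin and -0.34, -0.27 and -0.28 in obesity, a difference of -0.12 (adjusted p = 0.539). The Agrp window as a whole had more input signal in inulin, at -0.29, -0.27 and -0.13 in inulin against -0.37, -0.48 and -0.49 in obesity. The inulin arrays were all above the obesity arrays (difference 0.22, exact permutation p = 0.1).

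Among the dim Agrp probes, chr8:108089451-108089497 did not reach well above background in its MeDIP signal on a single array, and its difference is left out. The MeDIP signal of chr8:108092112-108092156 and of chr8:108092695-108092745 was well above background on 1 obesity array each and on no inulin array, and neither gave a fold above 1 against its bound. The other 8 Agrp probes, all well above background in both channels, differed by -0.24 to 0.23 with limma adjusted p of 0.279 or more.

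The Agrp probes formed 3 regions, none past the threshold, against 10.4% of regions across the array. Region chr8:108092695-108093199, which holds the probe past the threshold and 2 neighbours, had mean ratios of -0.71, -0.50 and -0.49 in inulin and -0.43, -0.37 and -0.20 in obesity. The groups did not overlap, and the difference was -0.23 (95% interval -0.44 to -0.03, unadjusted p = 0.030, limma adjusted p = 0.123), against 30.6% of regions with an unadjusted p under 0.05. It passed with normexp (-0.19, adjusted p = 0.036), with only probes well above background in both channels (-0.45, adjusted p = 0.026) and as the median of its probes (-0.71, adjusted p = 0.031). Region chr8:108091703-108092156 differed by -0.14 (95% interval -0.34 to 0.05) and region chr8:108089451-108091194 by 0.042 (-0.13 to 0.22), with limma adjusted p of 0.286 and 0.753.

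**Figure D3:**
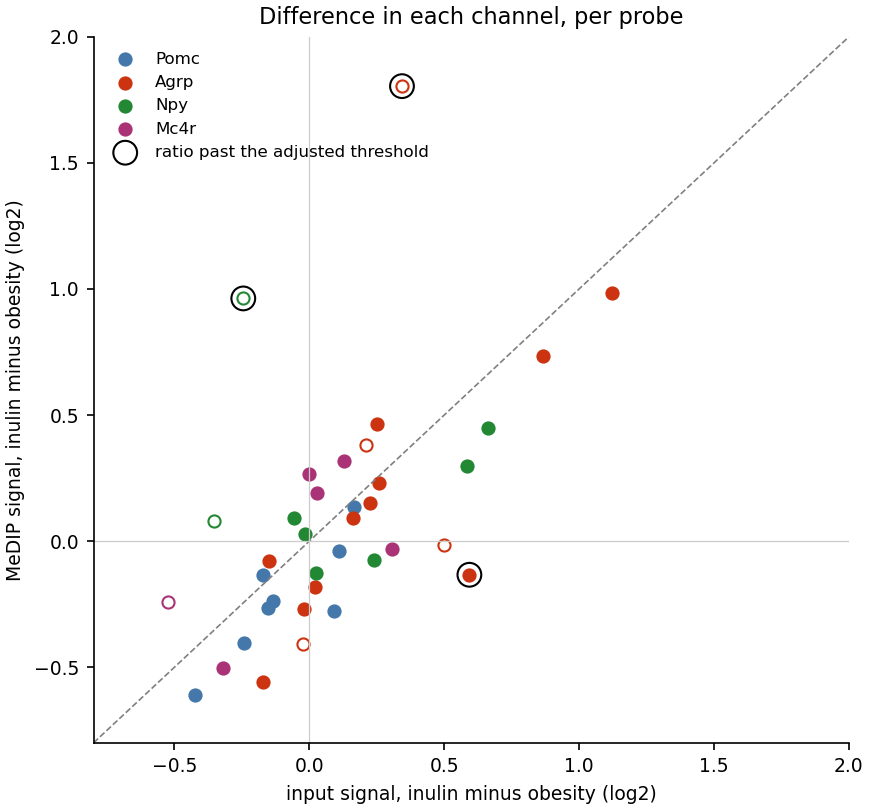
Difference between groups (inulin minus obesity, log2) in the MeDIP channel (vertical axis) against that in the input channel (horizontal axis), for each tested probe, by gene. On the dashed diagonal both channels moved equally and the ratio did not change, open symbols were not well above background in both channels on every array, and black rings mark the 3 probes whose ratio passed the adjusted threshold. The called Agrp probe that was measured in both channels sits at 0.59 on the input axis and -0.13 on the MeDIP axis.

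The Npy window had a higher ratio in inulin over all 8 probes, and with median centring this direction rested on the 2 dim ones. The mean ratio was 0.67, 0.67 and 0.71 in inulin and 0.58, 0.47 and 0.63 in obesity. Every inulin array was above every obesity array, and the means were 0.68 ± 0.03 and 0.56 ± 0.08 (SD, n = 3 each; difference 0.13, exact permutation p = 0.1). With median centring, the difference over the 6 probes well above background in both channels was -0.11 (exact permutation p = 0.1). On an equal scale those 6 probes differed by -0.16 to 0.24. In the authors' deposited table all 6 were higher in inulin, by 0.025 to 0.19. Over all 8 probes the window difference was 0.0069 with normexp (exact permutation p = 0.8), 0.26 on an equal scale (p = 0.1) and 0.23 with quantile-normalized ratios (p = 0.1). As region chr6:49771442-49773037 it differed by 0.13 (95% interval -0.04 to 0.29, limma adjusted p = 0.264), with a mean ratio above that of 90.7% of all regions.

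The 2 dim Npy probes lie at the start of the window. Probe chr6:49771748-49771807 passed in limma (adjusted p = 0.017), with ratios of 0.73, 0.95 and 0.73 in inulin and -0.15, -0.75 and -0.36 in obesity. Its MeDIP signal reached well above background on 0 of the 6 arrays, and its difference is left out. The call was lost without inulin array 1, 2 or 3 (adjusted p = 0.064, 0.074 and 0.052) and with slide as a random block (adjusted p = 0.088). Probe chr6:49771442-49771492, the lowest mean ratio of the window, had 0.01, 0.42 and 0.48 in inulin and 0.12, -0.36 and -0.20 in obesity. The groups overlapped (difference 0.45, limma adjusted p = 0.145), and its MeDIP signal was well above background on 2 arrays of each group.

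The brighter Npy probes moved less. The highest ratio, at chr6:49772368-49772412, was 1.60, 1.48 and 1.63 in inulin and 1.37, 1.96 and 1.78 in obesity. The groups overlapped, and the difference of -0.13 (limma adjusted p = 0.617) turned to 0.24 on an equal scale, 0.090 after quantile normalization and 0.14 in the authors' deposited table. The largest difference among the measured probes was at chr6:49771956-49772008, with 0.44, 0.46 and 0.56 in inulin and 0.79, 1.02 and 0.55 in obesity. It was -0.30 (limma adjusted p = 0.211), and 0.19 in the authors' deposited table. The other 4 Npy probes differed by -0.27 to 0.17 with limma adjusted p of 0.304 or more.

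Neither Npy channel separated the groups. The mean MeDIP signal of the window was 0.99, 1.05 and 1.14 in inulin and 0.83, 0.67 and 1.03 in obesity (difference 0.21, exact permutation p = 0.2). The mean input signal was 0.27, 0.32 and 0.37 in inulin and 0.20, 0.13 and 0.32 in obesity (difference 0.11, exact permutation p = 0.3). Over the 6 probes well above background in both channels, the input signal was higher in inulin by 0.24 (exact permutation p = 0.1). The MeDIP signal of those 6 was higher by 0.11 (exact permutation p = 0.4).

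Mc4r, the receptor, had a window difference that varied in size and p with the settings. The mean ratio over 6 probes with complete values was -0.03, -0.10 and -0.14 in inulin and -0.06, -0.22 and -0.22 in obesity. The groups overlapped (difference 0.081, exact permutation p = 0.3). The difference was 0.22 as the median of the probes (exact permutation p = 0.1), 0.032 after quantile normalization (p = 0.6) and 0.037 over the 5 probes well above background in both channels (p = 0.8). It was 0.12 with flagged spots kept, 0.074 in the authors' deposited table and 0.13 without obesity array 1, each with an exact permutation p of 0.1. Region chr18:67019656-67021380 differed by 0.081, with a 95% interval of -0.089 to 0.25 and a limma adjusted p of 0.494. Its mean ratio was above that of 46.1% of all regions. The MeDIP signal had the same mean in both groups, 0.61, and the input signal averaged 0.64 in inulin and 0.70 in obesity (exact permutation p = 1.0 and 0.6).

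Within the Mc4r window, the largest difference was at chr18:67020257-67020301, where the ratios were 0.41, 0.40 and 0.24 in inulin and 0.78, 0.56 and 0.67 in obesity. The groups did not overlap. The difference of -0.32 (SE 0.12) had a limma adjusted p of 0.123, and it was 0.099 in the authors' deposited table. The highest ratio, at chr18:67019859-67019904, was 1.25, 1.15 and 1.02 in inulin and 1.20, 1.43 and 1.28 in obesity. It overlapped, and its difference of -0.16 turned to 0.11 on an equal scale, 0.033 after quantile normalization and 0.052 in the authors' deposited table.

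The lowest Mc4r ratio, at chr18:67021333-67021380, was -1.30, -1.51 and -1.48 in inulin and -1.35, -1.63 and -1.84 in obesity. The difference of 0.18 turned to -0.16 on an equal scale, -0.17 after quantile normalization and -0.059 in the authors' deposited table. Probe chr18:67021130-67021179 had MeDIP signal well above background on no inulin array and on 3 obesity arrays, and gave no fold above 1 against its bound. Its input signal alone was lower in inulin by 0.53 (limma adjusted p = 0.033). The remaining 2 tested Mc4r probes differed by 0.21 and 0.28 (limma adjusted p = 0.278 and 0.314).

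Both untested Mc4r probes were very bright spots. Probe chr18:67019656-67019700 was flagged on 5 arrays and had a ratio of -0.78 on obesity array 3, with a centred MeDIP signal of 5.04. Probe chr18:67020067-67020111 was flagged on 3 arrays, and its ratios were 0.07 and 0.02 on inulin arrays 1 and 3 and -0.09 on obesity array 3. Its mean MeDIP signal was 7.89 on those inulin arrays and 6.30 on that obesity array.

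In the MeDIP channel alone, 5 of 37 probes passed an adjusted p of 0.05 in limma, against 10.6% of all probes: the Pomc probe at 3955203 and the Agrp probe at 108090753, both lower in inulin, the Agrp probes at 108090330 and 108090550, and the Npy probe at 49771748, all higher. Of these 5, the Npy probe had MeDIP signal well above background on 0 of 6 arrays and the Agrp probe at 108090330 on 2 inulin arrays and no obesity array, so their MeDIP differences are not measured ones. In the input channel alone, 3 of 37 passed, against 13.7% of all probes: the Agrp probes at 108090550 and 108092910, both higher in inulin, and the Mc4r probe at 67021130, lower. The MeDIP channel differed by more than the input channel at 20 of the 37.

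**Figure D4:**
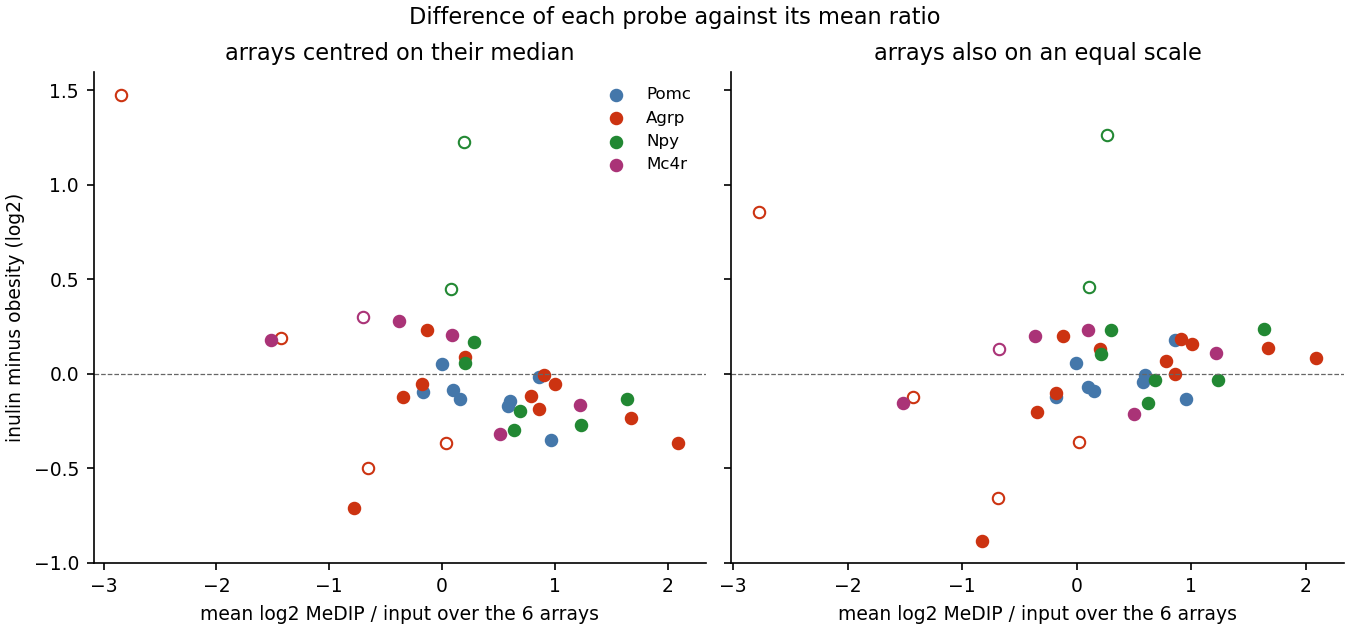
Difference between groups (inulin minus obesity, log2) of each tested probe against its mean ratio over the 6 arrays, with arrays centred on the median (left) and brought to an equal scale (right). Points are probes coloured by gene, and open symbols were not well above background in both channels on every array. With median centring, 19 of the 25 probes with a mean ratio above 0 lay below the zero line, and on an equal scale 10 of the 25 did.

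The excess of lower ratios in inulin was not present on an equal scale, and it stayed with some other settings. The SD over the 35 complete probes was 0.88 ± 0.02 in inulin and 1.11 ± 0.07 in obesity (n = 3 each, exact permutation p = 0.1), so ratios were spread more widely in obesity. Among the 25 tested probes with a mean ratio above 0, 6 were higher and 19 lower in inulin, with a median difference of -0.13. Among the 12 with a mean ratio below 0, 7 were higher and 5 lower, with a median of 0.12. With the arrays brought to an equal scale, 15 of the 25 were higher (median 0.082) and 5 of the 12 were higher (median -0.11). Over all 37, 20 were then higher and the median difference was 0.058. On an equal scale the count of member probes past the threshold was again 3. Across the array that scaling gave 2927 probes higher and 3040 lower in inulin, against 8712 higher and 5244 lower with median centring, and quantile normalization gave 2179 and 2419.

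The nearest regions outside the windows give the local setting. Beside Pomc, region chr12:3890451-3892048 averaged 0.03 in inulin and -0.07 in obesity (difference 0.10), and region chr12:4038418-4040007 averaged -0.16 and -0.39 (difference 0.23). With median centring, both differences had the sign opposite to that of Pomc. On an equal scale the Pomc difference was -0.029, and the neighbouring regions were not compared on that scale. Beside Agrp, region chr8:108041352-108043115 averaged 0.22 in inulin and 0.45 in obesity (difference -0.24), and region chr8:108103255-108104782, 10055 bp from the last Agrp probe, averaged -0.18 in both groups. The nearest measured regions to Npy averaged 0.02 in inulin and 0.19 in obesity (difference -0.17, at 285916 bp) and 0.40 in inulin and 0.10 in obesity (difference 0.30, at 425482 bp). Those nearest to Mc4r differed by 0.39, at 355428 bp, and 0.21, at 87904 bp.

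Regions elsewhere whose ratios ran most like a window's over the 6 arrays are named as a description only, since r over 6 arrays that fall into 2 groups is easily high. For Pomc they were chr10:127195557-127197125 and chr5:111845888-111847489 (Pearson's r 0.997 and 0.992). For Agrp they were chr19:8958136-8958794 and chr3:84108206-84109894 (0.994 and 0.992). For Npy they were chr12:11889214-11890896 and chr18:44121595-44123265 (0.999 and 0.998). For Mc4r they were chr2:154373345-154375132 and chr2:152397181-152398814 (0.993 and 0.992). Among all regions, 626 had r above 0.95 with Npy, 151 with Pomc, 104 with Agrp and 38 with Mc4r. The files pair none of these regions with a gene.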

How the data were processed

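Per the labels' protocols, MeDIP DNA carried Cy5 and input DNA Cy3. Per the file headers, the authors used Feature Extraction 11.0.1.1 (protocol ChIP_1100_Jul11, positions in mm9), which subtracted background from each intensity and applied a linear dye correction. The other deposited columns used were 0 or 1 flags per spot. A deposited table gives 1 score per probe and array. Its r with the log2 ratio of the same-numbered array was 0.87 to 0.91, so it runs as MeDIP over input. Scale, log base and centring stay unknown (medians 0.061, 0.057 and 0.043 in inulin, 0.056, 0.054 and 0.054 in obesity). The obesity columns may not follow the array numbers. At Npy probe chr6:49772993-49773037, obesity arrays 1 to 3 had ratios of 1.64, 0.39 and 2.06. The deposited scores were 0.28, 1.20 and 0.82. At Agrp probe chr8:108092910-108092954, the obesity arrays had -0.66, -0.40 and -0.21, and the scores were -0.26, -0.12 and -0.43. At both probes, scores 1 to 3 ranked as arrays 2, 3 and 1. The r of the obesity columns may therefore compare different samples. Which obesity column belongs to which array was not tested over all probes. Unpaired group comparisons do not depend on that order. The replicate block uses the array numbers.

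Ratios were log2 of red over green processed signal without outlier spots (1901 to 4863 an array), centred on the array's median with no loess or quantile step. Each channel was centred on its own median. Tested probes had at least 2 values in both groups. A region or window was the mean of its probes with a value on all 6 arrays, because a probe missing on 1 array moves the mean. This choice was made after the data were seen. limma 3.58.1 in R 4.3.3 compared the groups, two-sided, with Benjamini-Hochberg adjustment over all probes or regions and a threshold of 0.05. A run on simulated data drew independent values with the same SD in both groups. It therefore does not cover the correlation within slides or the unequal spread of the groups. Window means had two-sided exact permutation tests, unadjusted over the 4 windows. Where MeDIP signal was well above background in 1 group only, a bound used, per array, the higher of the dim probe's signal and the lowest centred signal well above background. It is open to dye bias, and it is approximate, because a spot with a higher signal can also fall short of well above background. The number of arrays limits the precision. Arrays correlated at 0.93 to 0.98 over regions and shared no identical values.

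Named in each window were the probes with the highest and lowest mean ratio, those past the threshold, and the largest difference among probes well above background in both channels on every array. Other probes were named after their values were seen. The members and lists were chosen with earlier results of these data known. Other genes of the pathway were not analysed here, because nothing at hand places their probes in mm9. Alternatives were normexp (offset 50), equal scale, quantile, loess, the deposited table, filters on dim probes, flagged spots kept, medians, a gap of 1000 bp, blocks for replicate number and slide, and leaving out each array. Each channel alone, and every probe with a value, were added after the data were seen. Replicate numbers were not used to pair the samples in the main tests. Deviations of same-numbered arrays correlated at -0.16, 0.32 and 0.36, and those of other pairs between groups at -0.41 to 0.23. So few pairs cannot decide whether the numbers pair the samples. Figures were drawn with matplotlib 3.10.9.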

Additional observations from a re-analysis of the deposited data

How the results depend on the processing

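Of the window ratios, 65 values kept their direction under an alternative and 3 turned: Npy with only probes well above background in both channels (-0.11) or in the input (-0.032), and Agrp with the latter filter (0.0022). These filters change which probes are averaged. Some of the 65 could not turn, because the setting left the value unchanged, as the replicate block did in every window and both filters did for Pomc. Others kept their sign at a value near zero: Npy with normexp (0.0069), Pomc in the deposited table (-0.010) and Agrp without obesity array 3 (-0.00056). The MeDIP channel turned for Agrp with the filter on both channels (-0.0016), for Npy as a median (-0.081) and for Mc4r when arrays were left out (-0.046 to 0.040). The input channel of Mc4r turned with the filter on both channels (0.029), flagged spots kept (0.14), as a median (0.019) and when arrays were left out (-0.10 to 0.0016). The 3 member probes called became 1 with the filter on both channels, 5 in the MeDIP channel alone, 0 with slide as a random block and 0 to 3 without 1 array (0 without inulin array 1 or 2, 1 without inulin array 3). With no member region called, normexp, the filter on both channels and the median of the probes each called 1. Direction turned for the Pomc probe at 3953857 when arrays were left out (-0.21 to 0.081), for the Agrp probe at 108090753 on an equal scale (0.082), for the Npy probes at 49772368 (equal scale 0.24, quantile 0.090, 0.14 in the deposited table) and 49771956 (0.19 in the deposited table), and for the Mc4r probes at 67019859 (0.11, 0.033 and 0.052 under the same 3), 67021333 (-0.16, -0.17 and -0.059) and 67020257 (0.099 in the deposited table). Region chr8:108089451-108091194 turned with normexp (-0.089), loess (-0.0063), the filter on both channels (-0.14), as a median (-0.0091) and when arrays were left out (-0.00073 to 0.11). Region chr6:49771442-49773037 turned with the filters on both channels (-0.11) and on input (-0.032). Other causes of these turns were not tested.

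Across the array, 13956 probes and 2344 regions were called with the settings reported. These became 27090 and 3689 with normexp, 21215 and 3702 by loess, 5967 and 1210 at equal scale, 4598 and 882 by quantile, 4832 and 582 in the deposited table, and 270 and 0 with slide as a random block (estimated correlations 0.35 and 0.29). Medians called 1554 regions. With a replicate block, 3 member probes and 0 member regions were called, and 14747 probes and 3804 regions in all. The window differences are the same by construction (-0.117 for Pomc, -0.065 for Agrp, 0.125 for Npy and 0.081 for Mc4r), and the smallest p of that sign-flip test is 0.25. Leaving out 1 array gave 701 to 15200 probes and 0 to 3033 regions. The 7 of 39 probes not above background in both channels on every array limit what the ratio can show.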
